A study of Mus musculus and Acomys cahirinus with 84 samples.

Results

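Homologous recombination repairs a broken chromosome by copying an intact sister, and the Fanconi anemia proteins clear crosslinks that join the DNA strands; their genes are followed here in cultured primary skin fibroblasts after gamma irradiation. The set is a list of 39 gene names, drawn up with earlier results of these data known, and all 39 were found once in the mouse table (56980 genes) and once in the *Acomys cahirinus* table (19818 genes). The cells came from 3 populations: *A. cahirinus*, the African spiny mouse; house mice labelled C56BL6; and wild mice. No transgene or engineered allele is named for any group. Doses were 0, 10 and 20 Gy, cells were collected at 24 h or 12 d, and at 12 d there was a further group of untreated cells that were passaged. Each of the 21 groups held 4 polyA RNA libraries, and the labels give neither age nor passage number. All 24 h libraries belong to batch B1 and all 12 d libraries to batch B2, so the 2 times differ in batch as well, the effects cannot be told apart, and no test compares them.

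A double-strand break enters recombination when its ends are trimmed to single strands. The MRE11-RAD50-NBN complex and CtIP (Rbbp8) begin this resection, and EXO1 and DNA2 extend it. BRCA1 and BARD1 promote resection, PALB2 and BRCA2 act after it, and proteins such as XRCC2, XRCC3 and RAD54 assist strand exchange. Helicases such as BLM and nucleases such as MUS81-EME1 and GEN1 then take the joined molecules apart. In the Fanconi pathway a core complex, with the E2 enzyme UBE2T, attaches ubiquitin to the FANCI-FANCD2 pair, which marks the crosslinked site for incision. Several of these genes are transcribed mainly in cells that are preparing to copy or are copying DNA.

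Libraries held 26.65 to 39.82 M counts in C56BL6, 17.42 to 35.98 M in wild mouse and 25.55 to 52.86 M in *A. cahirinus* cells. A floor of 3 counts, which covers counting error only, lay at or below 0.172 counts per M (CPM) in every library, and all 39 genes passed the filter on low counts in all 29 comparisons. Fibroblast markers summed to at least 10976 CPM in every library. *A. cahirinus* libraries also held muscle markers, with Myod1 at 30.7 to 187 CPM and Myog at 167 to 1037 CPM, whereas neither passed 0.22 CPM in any mouse library. Desmin (Des), the other muscle marker, reached 1428 CPM in wild mice. Keratinocyte markers summed to 203 to 878 CPM in the C56BL6 libraries of replicate 1 and to 1.1 to 3.7 CPM in those of replicates 2 to 4, and to at most 5.8 CPM elsewhere. Marker sums of leukocytes, endothelium, melanocytes, Schwann cells and adipocytes were at most 47.4 CPM in any library. In wild mice, the 24 h, 10 Gy library of replicate 1 was the shallowest (17.42 M counts) and had 17843 genes detected, against 21846 to 22253 in the others of its group. The 12 d libraries of wild replicate 1 went against their number. Set against the 24 h libraries of replicate 1, they had 64 genes that were on (at least 1 CPM in each library) at one time and off (at most 0.1 CPM) at the other, but 0 such genes against the 24 h libraries of replicate 4. Against the 12 d libraries of replicate 4 they also had 0, where the other 5 pairs of 12 d wild numbers had 22 to 83. The 12 d wild groups of 4 libraries may therefore hold fewer than 4 animals, and whether libraries were exchanged or relabelled was not tested. Counts of members called that use the 12 d wild libraries are therefore given with and without replicate 1. Values of single genes there are given with all 4 replicates. The part of these features in the results was not tested.

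Levels are CPM on library sizes scaled by the TMM method of edgeR, and replicates are numbered as in the labels, where a number stands for the same animal in every group of a population and time. Changes are log2 fold changes with standard errors (SE) from edgeR's quasi-likelihood test, and "called" means a Benjamini-Hochberg adjusted p under 0.05 over all genes tested. A second fit of each comparison took the replicate number as a block (the blocked fit). Counts at an unadjusted p are mostly given without the share of all genes, so they do not set the members apart from other genes. In bulk RNA of this kind, fewer cells that express a gene and less RNA per cell cannot be told apart.

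In untreated cells at 24 h, levels divided by exonic length were highest in C56BL6 mice for Nbn (10.2 ± 0.969 CPM per kb, SD, n = 4), Rad50 (8.46 CPM per kb) and Mre11a (7.72 CPM per kb), the 3 genes of the complex that binds broken ends. Wild mice had the same leading 3 genes, at 9.23, 7.93 and 6.61 CPM per kb. In *A. cahirinus* the leading genes were Rbbp8 (19 CPM per kb), Ube2t (11.8 CPM per kb) and Mus81 (11.2 CPM per kb). The resection nuclease gene Dna2 was among the lowest 3 in each population, at 1.07 CPM per kb in C56BL6 cells, 0.495 in wild mouse cells and 0.794 in *A. cahirinus* cells. Lengths come from different annotations of the species, and these levels were not tested between them.

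**Figure D1:**
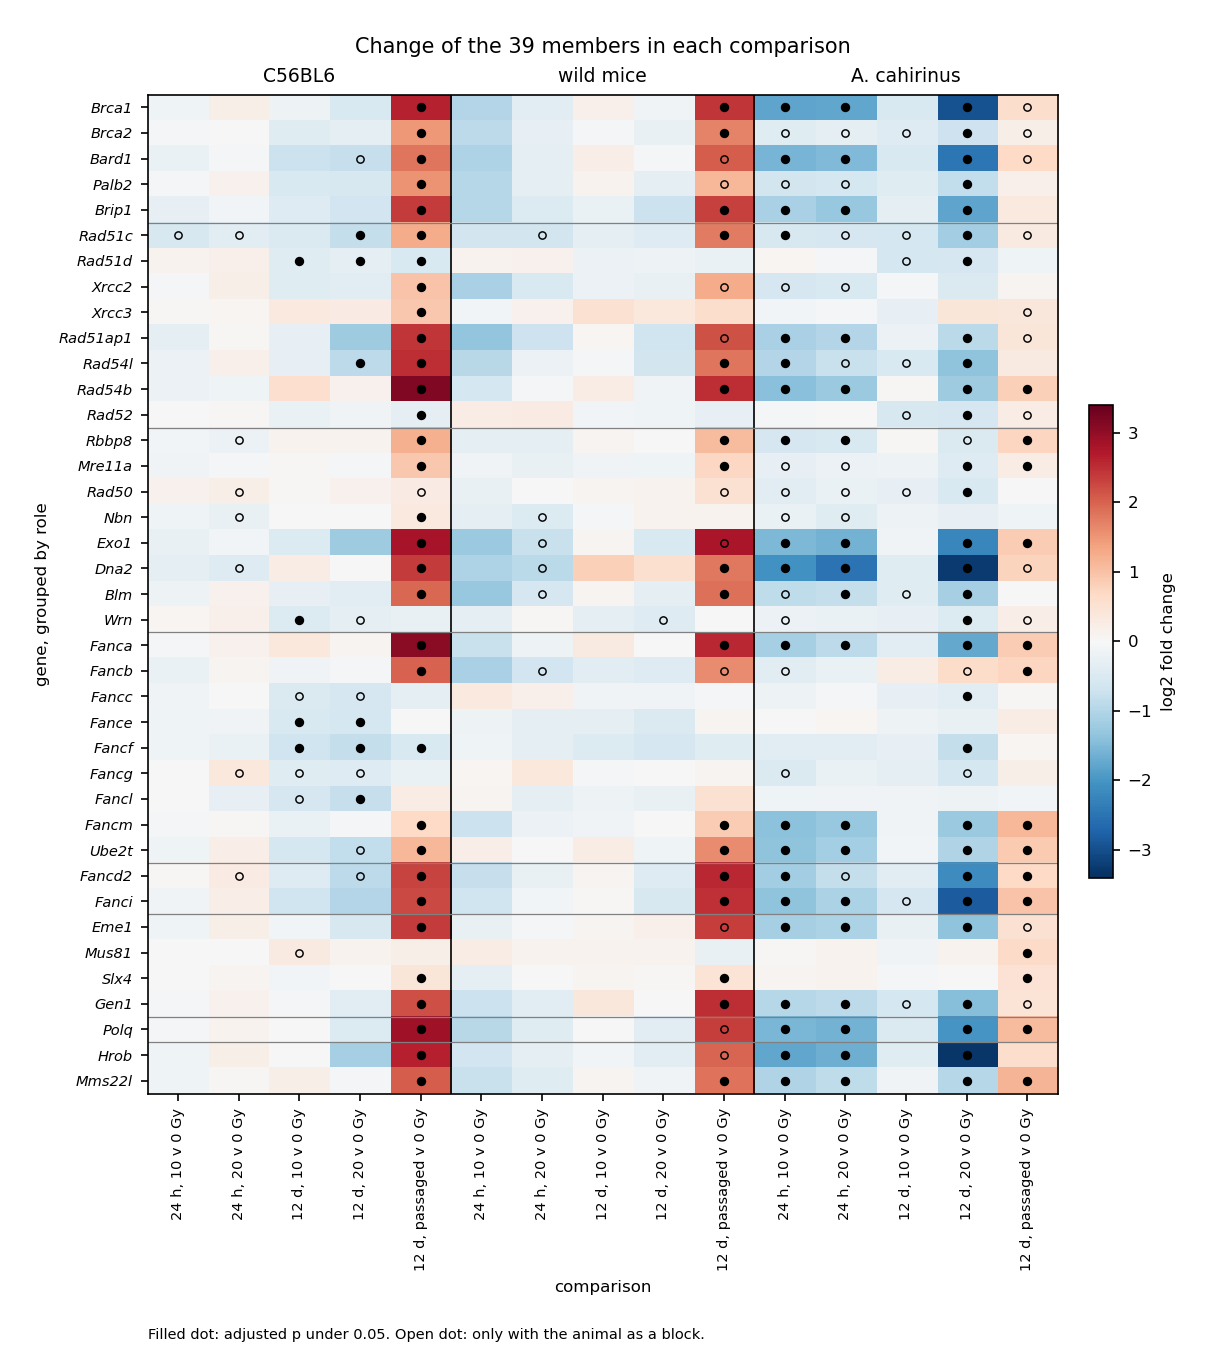
Log2 fold change (colour) of each of the 39 genes (rows, grouped by role) in each comparison (columns), from edgeR with 4 libraries a group; a filled dot stands for an adjusted p under 0.05 and an open dot for one reached only in the blocked fit. The filled dots lie mainly in the *A. cahirinus* columns at 24 h, in its 20 Gy column at 12 d and in the columns of passaged cells, while the 24 h columns of both mice hold 0 filled dots.

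At 24 h after 20 Gy, *A. cahirinus* fibroblasts had lower levels of 18 of the 39 genes and higher levels of 0 (by edgeR's quasi-likelihood test, where 2.7% of all genes tested were called lower). The genes that fell included Brca1, Bard1 and Brip1, the resection genes Dna2 and Exo1, polymerase theta (Polq) and the FANCI gene. The median change over the 39 genes was -0.61, against 0.03 over all genes. At an unadjusted p under 0.05 there were 28 genes lower, and DESeq2 called 22. The count changed when 1 animal was left out, and the cause was not tested. Without replicate 1 edgeR called 0, and without replicate 3 it called 0. There 26 and 22 members had an unadjusted p under 0.05 (14.4% and 8.91% of all genes), and the median changes were -0.74 and -0.60. Without replicates 2 and 4 edgeR called 20 and 13. Muscle markers summed to 548 to 1415 CPM in the untreated and 728 to 1610 CPM in the 20 Gy libraries, and their part was not tested.

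Brca1 (chromosome 11, 101379577 to 101442781, minus strand, GRCm39 in the mouse), whose product directs breaks toward resection, was at 34.4, 27.95, 37.8 and 40.4 CPM in untreated *A. cahirinus* replicates 1 to 4 and at 10.7, 7.27, 10.3 and 12.7 CPM after 20 Gy. The groups did not overlap, and every animal was lower after irradiation. The change was -1.76 ± 0.18 (SE, n = 4; edgeR adjusted p = 0.00323). Bard1, the partner of BRCA1, went from 15.2, 13.3, 14.3 and 18.4 CPM to 5.11, 3.18, 5.20 and 7.91 CPM, again without overlap (-1.49 ± 0.25, edgeR adjusted p = 0.0163). The helicase gene Brip1 fell by 1.29. Brca2 and Palb2, whose products act after resection, were lower by smaller amounts that were not called (changes of -0.31 and -0.61, edgeR adjusted p = 0.293 and 0.0868). The blocked fit called both of them lower, where 10.8% of all genes were lower.

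Among the resection genes, Dna2 (chromosome 10, 62782733 to 62809965, plus strand, GRCm39) changed most. Its 4 untreated libraries held 4.14, 2.81, 5.52 and 7.71 CPM and the 20 Gy libraries 0.77, 0.32, 0.78 and 1.58 CPM. The ranges were apart by over 1 CPM, and the change was -2.52 ± 0.48 (edgeR adjusted p = 0.0252). Exo1 went from 26, 19.6, 31.8 and 35.5 CPM to 7.99, 6.14, 10.3 and 11.7 CPM. These groups were also apart, with a change of -1.62 ± 0.24 (edgeR adjusted p = 0.0101). Rbbp8, which starts resection, fell by a smaller but regular amount, from 72.7, 80.8, 78.9 and 75.4 CPM to 56.3, 49.5, 52.2 and 52.9 CPM (-0.53 ± 0.07, edgeR adjusted p = 0.00579). The helicase gene Blm fell by 0.82, whereas Mre11a, Rad50, Nbn and Wrn had changes between -0.42 and -0.19 that were not called. With the blocked fit Mre11a, Rad50 and Nbn were called as well (adjusted p = 0.0422, 0.0282 and 0.00328).

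Of the 8 genes of strand exchange, 2 were called. Rad54b, a translocase of the RAD54 family, went from 9.38, 9.82, 10.6 and 11.8 CPM to 4.51, 3.35, 3.92 and 5.38 CPM (-1.26 ± 0.16, edgeR adjusted p = 0.00607), and the groups did not overlap. Rad51ap1 fell by 1. The strand-exchange genes Rad51d and Xrcc3 and the annealing gene Rad52 had changes of -0.04, -0.03 and -0.01, with 2 animals lower and 2 higher for each. The blocked fit called 5 of the 8 lower, adding Rad51c, Xrcc2 and Rad54l, where 10.8% of all genes were lower.

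In the Fanconi core complex, 3 of 9 genes were called, and the 2 core subunits among them were Fancm and Fanca. Fancm, a DNA translocase that brings the complex to DNA, went from 26.2, 32.2, 36.8 and 36.3 CPM to 11.8, 9.59, 14.8 and 16.2 CPM. All 4 irradiated libraries lay below all 4 untreated ones, with a change of -1.30 ± 0.18 (edgeR adjusted p = 0.00774). Fanca fell by 0.90 and the E2 enzyme gene Ube2t by 1.16. Fancc, Fance and Fancl had changes of -0.07, 0.07 and -0.12. Fanci, in the pair that receives the ubiquitin, went from 29.04, 24.3, 32.2 and 17.9 CPM to 14.1, 8.82, 15.04 and 10.4 CPM (-1.08 ± 0.22, edgeR adjusted p = 0.0337), with ranges apart. Its partner Fancd2 was lower without overlap but was not called (-0.80, edgeR adjusted p = 0.135; 0.000616 in the blocked fit).

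Nuclease genes were divided. Eme1, a subunit of the MUS81 nuclease, went from 8.19, 7.43, 9.64 and 10.5 CPM to 3.44, 3.37, 4.09 and 5.79 CPM (-1.08 ± 0.20, edgeR adjusted p = 0.0246), and Gen1, a resolvase gene, fell by 0.90. The catalytic partner Mus81 stood at 26.2, 21.8, 28.1 and 25.9 CPM before and 27.03, 30.2, 30.3 and 22.5 CPM after 20 Gy. The groups overlapped, and the change of 0.13 ± 0.12 was not called (edgeR adjusted p = 0.633). Slx4, a scaffold for nucleases, was likewise not called (0.12, edgeR adjusted p = 0.509). Polq, the gene of an end-joining polymerase that competes with recombination, went from 10.1, 10.4, 11.2 and 10.6 CPM to 2.64, 2.57, 3.67 and 4.70 CPM. No library overlapped, and the change was -1.61 ± 0.20 (edgeR adjusted p = 0.00534). Hrob, which recruits a helicase to recombination intermediates, fell by 1.66, and Mms22l, which acts at stalled forks, fell by 0.86.

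**Figure D2:**
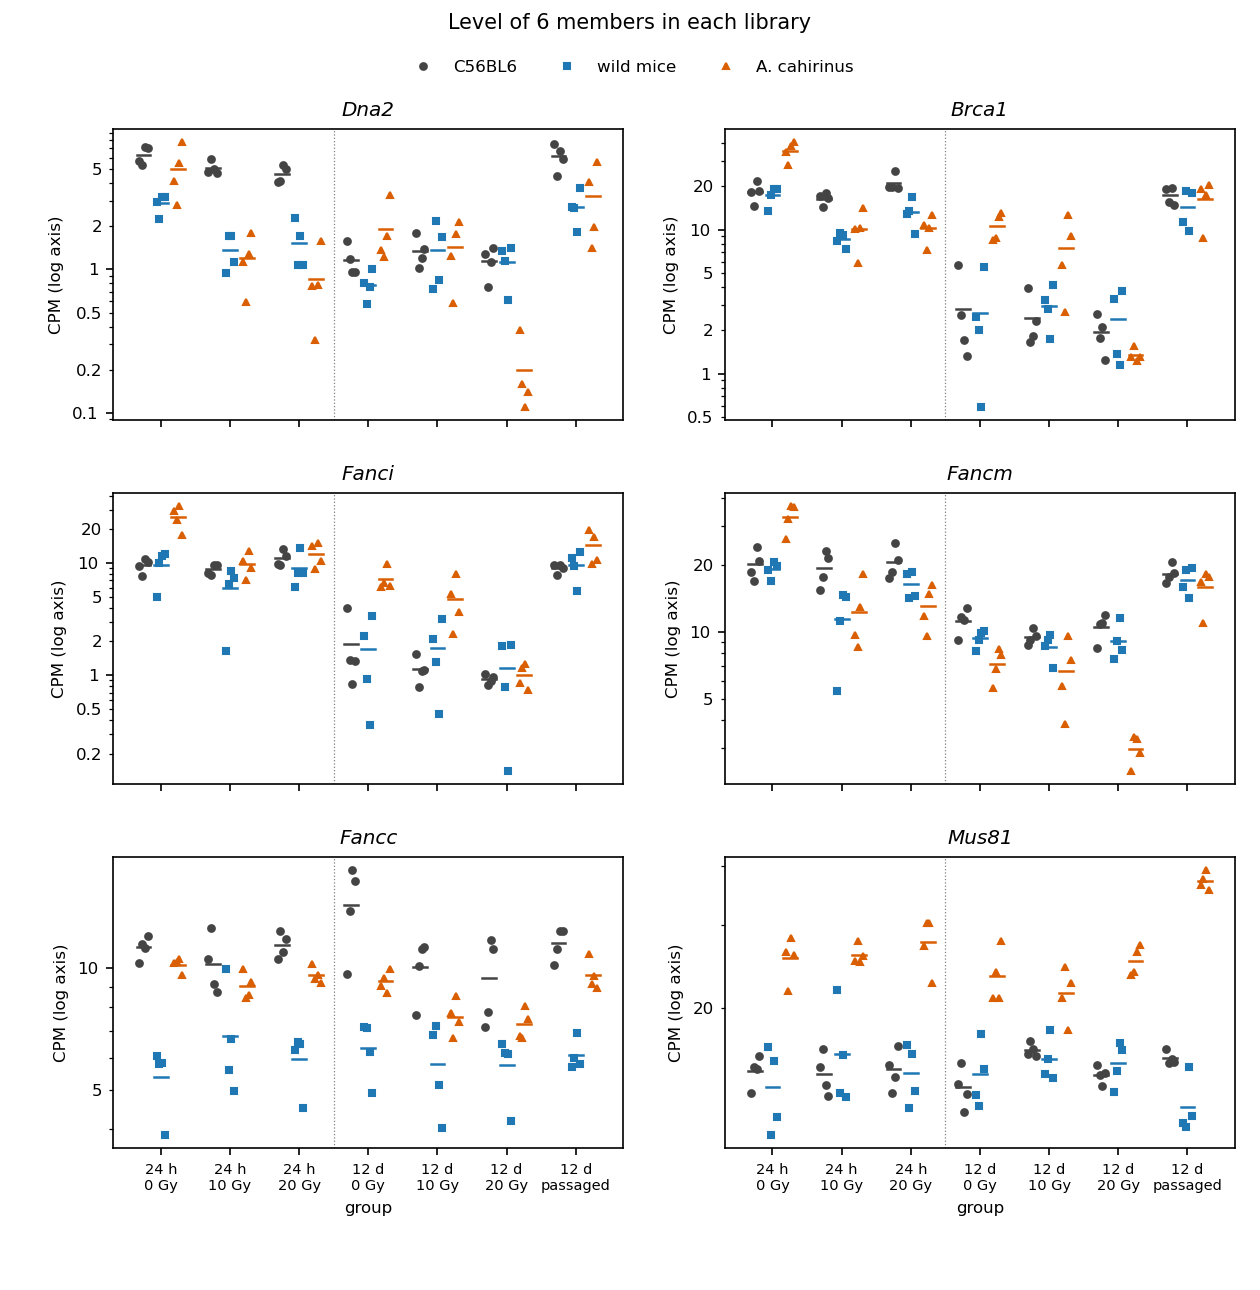
Levels in CPM (log axis) of Dna2, Brca1, Fanci, Fancm, Fancc and Mus81 in each library (points, by population) in each group of time and dose, with 4 libraries a group and the group mean as a line. In *A. cahirinus* at 24 h the Brca1 points of the 20 Gy group (7.27 to 12.7 CPM) lie below all untreated points (27.95 to 40.4 CPM), and the Mus81 points overlap.

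The 10 Gy dose gave *A. cahirinus* a like count at 24 h: 20 of 39 genes were called lower and 0 higher, against 3.1% of all genes called lower, and the median change was -0.63. Without replicate 1 or replicate 3 edgeR called 0 of them. There 24 and 25 genes had an unadjusted p below 0.05, and the share of all genes at that p is not given. Without replicates 2 and 4 edgeR called 22 and 16. Brca1 at 10 Gy was at 10.2, 5.90, 10.3 and 14.04 CPM, below every untreated library (-1.78 ± 0.24, edgeR adjusted p = 0.00762). Dna2 was at 1.12, 0.59, 1.29 and 1.79 CPM, and its change was -2.06 ± 0.40 (edgeR adjusted p = 0.0257). Both Fanconi partners were called at this dose. Fanci was at 10.5, 7.06, 12.9 and 9.11 CPM (-1.37 ± 0.22, edgeR adjusted p = 0.0143), and Fancd2 went from 16.4, 13.7, 19.4 and 20 CPM to 7.14, 4.25, 8.95 and 10.3 CPM (-1.17 ± 0.26, edgeR adjusted p = 0.0468). Neither gene's 10 Gy libraries reached an untreated one. The 2 doses were compared with the same untreated libraries.

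In C56BL6 fibroblasts at 24 h no gene of the set was called by the fit without a block. After 20 Gy, edgeR called 0 of 39 genes (0.0895% of all genes were called), 4 had an unadjusted p under 0.05 and DESeq2 called 0. The changes ran from -0.44 to 0.35 with a median of 0.06. Brca1 was at 18.2, 14.5, 21.7 and 18.6 CPM untreated and at 19.7, 19.9, 25.3 and 19.4 CPM after 20 Gy. The groups overlapped (0.21 ± 0.14, edgeR adjusted p = 0.713). Dna2 had the lowest change, from 5.68, 5.35, 7.11 and 7.02 CPM to 4.04, 4.17, 5.34 and 4.99 CPM. These groups were apart by a small gap, and the change was -0.44 ± 0.16 (edgeR adjusted p = 0.394; 0.00904 in the blocked fit). Under the block 7 of the 39 were called, against 17.6% of all genes, so the share of members was close to that of all genes. Dna2, Rad51c (-0.39), Nbn (-0.25) and Rbbp8 (-0.19) were lower, and Rad50 (0.21), Fancd2 (0.29) and Fancg (0.35) were higher. At 10 Gy the count was 0 (0.007% of all genes called, 2 members at an unadjusted p under 0.05, 0 by DESeq2), and the blocked fit called Rad51c alone (-0.56, adjusted p = 0.0143), against 11.5% of all genes.

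In wild mouse fibroblasts at 24 h no gene of the set was called without a block. After 20 Gy edgeR called 0 of 39, as it called 0% of all genes, 5 members had an unadjusted p under 0.05 and DESeq2 called 0. The median change was -0.30 against 0.01 over all genes. Brca1 was at 13.4, 17.4, 19.03 and 19.2 CPM untreated and at 12.9, 13.5, 16.9 and 9.37 CPM after 20 Gy, with overlap (-0.38 ± 0.20, edgeR adjusted p = 0.928). Dna2 was at 2.96, 2.24, 3.21 and 3.21 CPM and then at 2.27, 1.07, 1.71 and 1.07 CPM. Each animal was lower, though replicate 1 after irradiation overlapped the untreated range (-0.91 ± 0.31, edgeR adjusted p = 0.723; 0.0178 in the blocked fit). Under the block 6 genes were called lower, against 12.5% of all genes in either direction: Dna2, Exo1 (-0.74), Fancb (-0.64), Rad51c (-0.64), Blm (-0.54) and Nbn (-0.46). Counting both directions, the share of members was close to that of all genes. Without replicate 1 it called 15, against 16.6%. The blocked fits of all 4 replicates called 3 members lower in every population at this dose and time (Rad51c, Nbn and Dna2), as they did 1.16% of all genes tested in each.

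At 10 Gy the wild libraries depended on the shallow library of replicate 1. With it, edgeR called 0 of 39 in both fits (0% of all genes in each; 14 members at an unadjusted p under 0.05 without the block; 7 by DESeq2), with a median change of -0.66. Without it, the blocked fit called 28 genes lower, against 11.5% of all genes lower. Brca1 was at 8.31, 9.47, 9.23 and 7.35 CPM, so that all 4 libraries lay below the untreated range of 13.4 to 19.2 CPM. Fanci in the same libraries was at 1.63, 6.55, 8.42 and 7.32 CPM, and the low value is that of replicate 1. Fancm showed the same split, with 5.38 CPM in replicate 1 and 11.2, 14.6 and 14.3 CPM in the others.

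Changes at 20 Gy were then compared between populations as an interaction, in which a negative value means a lower change in the first population. The changes at 10 Gy, given above for each population at 24 h, were not tested between populations. The comparisons with *A. cahirinus* share its libraries and are not independent of each other. Where a replicate number was left out of a comparison between populations, its libraries were left out of both. Wild replicate 1 was therefore not left out alone there. Against C56BL6 mice at 24 h, the change in *A. cahirinus* was lower for 15 of the 39 genes and higher for 0, against 1.89% of all genes lower, with a median difference of -0.77 against 0.01 over all genes. The blocked fit called 25 (16.8% of all genes in either direction), and DESeq2 called 23. The count was 6, 10, 0 and 8 without replicates 1, 2, 3 and 4, and 23 members had an unadjusted p under 0.05 without replicate 3. The difference was -1.97 ± 0.24 for Brca1 (edgeR adjusted p = 0.00221), -1.85 ± 0.36 for Hrob (edgeR adjusted p = 0.0118) and -1.73 ± 0.28 for Polq (edgeR adjusted p = 0.00382). Dna2 had the lowest value of the set, -2.09 ± 0.52, and just missed the threshold (edgeR adjusted p = 0.0505; 1.22e-06 in the blocked fit). The other 12 called genes had differences between -1.55 (Exo1) and -0.90 (Mms22l), and among them were Bard1, Fancm, Fanci and Eme1.

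Against wild mice, edgeR called 0 of 39 differences at 24 h (0% of all genes; 15 members at an unadjusted p under 0.05, 2 by DESeq2), with a median of -0.29. The blocked fit called 13, all lower in *A. cahirinus*, against 4.34% of all genes lower. Among these were Dna2 (-1.65, adjusted p = 0.00329), Brca1 (-1.39, adjusted p = 0.000431), Hrob (-1.34) and Polq (-1.23). Wild and C56BL6 mice were not called different from each other for any of the 39 genes at 24 h in either fit of all 4 replicates (0% and 0.647% of all genes; 6 members at an unadjusted p under 0.05 by edgeR, 0 by DESeq2). Without replicate 1 of both populations the blocked fit called 11, all lower in wild mice, against 5.1% of all genes in either direction. Among these were Exo1 (-0.99), Hrob (-0.78), Brca1 (-0.75), Polq (-0.73) and Mms22l (-0.73).

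**Figure D3:**
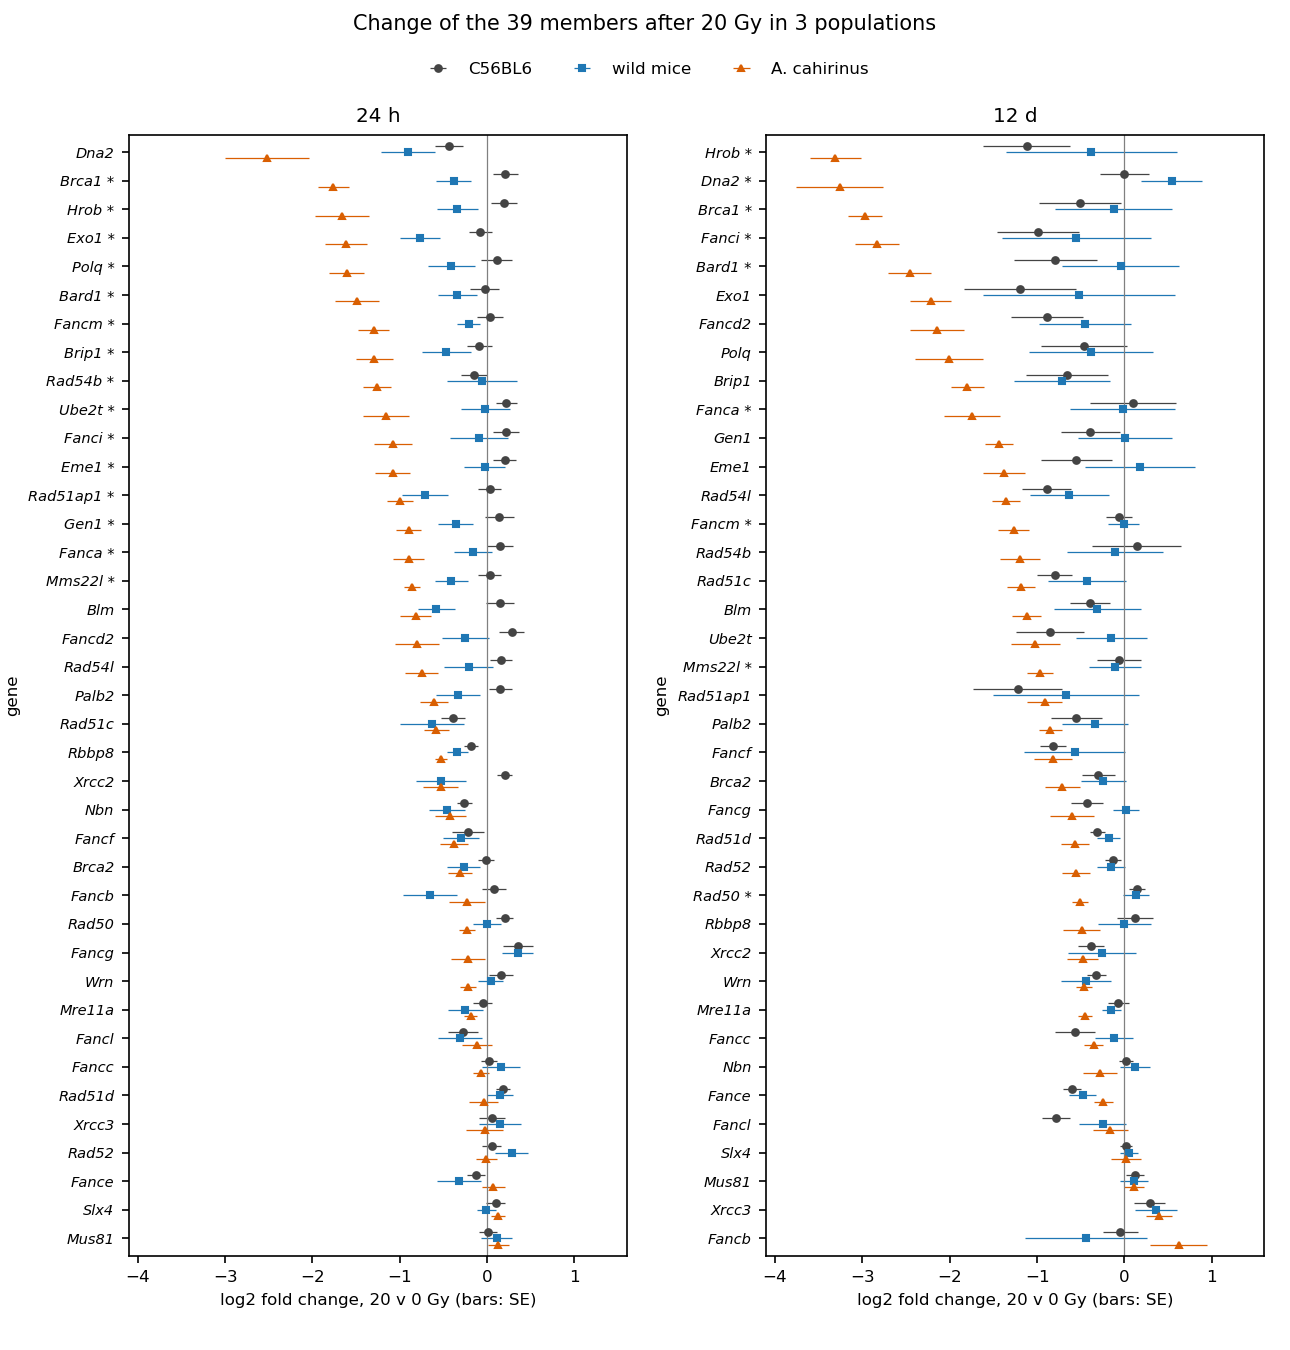
Log2 fold change at 20 Gy against untreated cells for each of the 39 genes (points), by population, at 24 h and 12 d, with bars for 1 SE (edgeR, 4 libraries a group); an asterisk marks genes whose change differed between *A. cahirinus* and C56BL6 mice at an adjusted p under 0.05. At 24 h the *A. cahirinus* points reach -2.52 (Dna2), while the C56BL6 points stay between -0.44 and 0.35.

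At 12 d after 20 Gy, the fall in *A. cahirinus* covered 29 of 39 genes with 0 higher, against 18.1% of all genes lower, and the median change was -0.91 against 0 over all genes. Leaving out replicate 1 lowered the count to 18, with 21, 21 and 32 without replicates 3, 4 and 2. Brca1 went from 8.52, 8.81, 12.25 and 12.95 CPM to 1.31, 1.57, 1.23 and 1.31 CPM. The irradiated libraries were close to each other and far below the untreated ones (-2.97 ± 0.19, edgeR adjusted p = 8.75e-05). Fanci went from 6.16, 6.70, 9.74 and 6.27 CPM to 0.86, 1.16, 1.26 and 0.74 CPM (-2.83 ± 0.25, edgeR adjusted p = 0.000254). Hrob went from 1.85, 1.69, 2.55 and 2.63 CPM to 0.26, 0.22, 0.25 and 0.14 CPM, near the floor of counting (-3.31 ± 0.29, edgeR adjusted p = 0.000254). Dna2 was also near that floor, at 0.38, 0.16, 0.11 and 0.14 CPM against 1.37, 1.22, 1.71 and 3.33 CPM untreated (-3.26 ± 0.50, edgeR adjusted p = 0.00232).

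By role, all 5 BRCA genes, 6 of 8 strand-exchange genes, 6 of 8 resection and helicase genes, 5 of 9 core complex and E2 genes, Fanci and Fancd2, 2 of 4 nuclease genes, Polq, Hrob and Mms22l were called lower. Genes that 20 Gy did not move past the threshold at 24 h were called here, among them Rad51c, from 7.49, 6.61, 8.06 and 8.52 CPM to 3.32, 2.85, 4.09 and 3.24 CPM (-1.18 ± 0.16, edgeR adjusted p = 0.0012). Its groups were apart. Brca2 fell by 0.71, Rad50 by 0.51 and Mre11a by 0.45. Mus81 again overlapped, with 20.97, 23.8, 20.9 and 27.7 CPM untreated and 23.4, 23.8, 26.3 and 27.2 CPM at 20 Gy (0.11 ± 0.11, edgeR adjusted p = 0.477). Fancb, a core complex gene, was at 6.19, 8.57, 6.56 and 5.72 CPM and then at 8.23, 18.6, 8.16 and 6.40 CPM. Each animal was higher, and replicate 2 stood apart (0.62 ± 0.33, edgeR adjusted p = 0.188; 0.0411 in the blocked fit). Muscle markers in these libraries summed to 994 to 2241 CPM untreated and 502 to 2704 CPM at 20 Gy, and their part in the changes was not tested.

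The lower dose left fewer genes called in *A. cahirinus* at 12 d, and the comparison of the doses depended on the fit. At 10 Gy edgeR called 0 of 39 genes (2.87% of all genes; 6 members at an unadjusted p under 0.05, 3 by DESeq2), with a median of -0.29. Under the block 9 were called, all lower, against 13.4% of all genes lower: Gen1 (-0.65), Fanci (-0.66), Rad51c (-0.61), Rad51d (-0.59), Rad54l (-0.56), Rad52 (-0.54), Brca2 (-0.45), Blm (-0.45) and Rad50 (-0.29). Between 20 and 10 Gy edgeR also called 0 (0.457% of all genes; 22 members at an unadjusted p under 0.05, 15 by DESeq2), with a median of -0.59; without replicate 2 it called 23. The blocked fit called 20 genes, against 17.9% of all genes, among them Hrob (-2.85, adjusted p = 0.00249) and Brca1 (-2.32, adjusted p = 0.00541).

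In C56BL6 mice at 12 d, 20 Gy lowered 6 of 39 genes and raised 0, where 13.6% of all genes were lower, so the share of members was close to that of all genes. Brca1, Fanci, Hrob and Dna2, described above for *A. cahirinus*, were not among the 6. For none of the 6 was the change called different between *A. cahirinus* and C56BL6 mice by the interaction without a block. Fancf, a core complex adaptor, went from 4.2, 4.65, 4.64 and 4.75 CPM to 2.12, 2.54, 2.66 and 2.82 CPM (-0.82 ± 0.15, edgeR adjusted p = 0.00692). Fance, which binds FANCD2, went from 26.7, 23.1, 24 and 20.97 CPM to 14.7, 14.1, 16.4 and 15.9 CPM (-0.60 ± 0.10, edgeR adjusted p = 0.00426). Neither gene's groups overlapped. Fancl, the ubiquitin ligase subunit, went from 3.19, 4.10, 3.38 and 3.27 CPM to 1.95, 1.86, 2.03 and 2.08 CPM (-0.78 ± 0.16, edgeR adjusted p = 0.0098), also without overlap. Of its exonic bases, 48.6% overlap other genes in the mouse annotation, so its counts are uncertain. The overlap is 15% for Fancf and 15.4% for Rad54l, named next, so their counts are uncertain as well. The other 3 were strand-exchange genes: Rad51c (-0.80 ± 0.20, edgeR adjusted p = 0.023), Rad51d (-0.31 ± 0.09, edgeR adjusted p = 0.035) and Rad54l (-0.89 ± 0.28, edgeR adjusted p = 0.0462). These 3 were also called lower in *A. cahirinus* at this dose and time. The count moved when single animals were left out, to 8, 1, 1 and 2 without replicates 1, 2, 3 and 4. The blocked fit called 12, against 47.5% of all genes.

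Brca1 at 12 d in C56BL6 mice was at 5.67, 2.55, 1.72 and 1.32 CPM untreated and at 2.61, 1.78, 2.12 and 1.24 CPM after 20 Gy. Replicate 1 was the highest untreated library, the groups overlapped, and the change was not called (-0.51 ± 0.47, edgeR adjusted p = 0.456). Replicate 1 also held the highest untreated level of the proliferation gene Mki67, at 56.1 CPM against 15.8, 9.02 and 12.1 CPM in the others, and it is the animal whose libraries held keratinocyte markers. After 10 Gy, 4 genes were called lower, against 10.6% of all genes lower: Fancf (-0.68 ± 0.14, edgeR adjusted p = 0.0152), Fance (-0.53 ± 0.10, edgeR adjusted p = 0.00904), Wrn (-0.47 ± 0.12, edgeR adjusted p = 0.029) and Rad51d (-0.40 ± 0.10, edgeR adjusted p = 0.0257). Here too the share of members was close to that of all genes. The count was 6, 0, 0 and 1 without replicates 1, 2, 3 and 4, and 8 in the blocked fit (38.8% of all genes), where Mus81 was higher (0.30). The doses themselves differed for 0 genes by edgeR (0% of all genes; 1 member at an unadjusted p under 0.05, 0 by DESeq2).

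Wild fibroblasts at 12 d had 0 of 39 genes called at 20 Gy (0.0694% of all genes; 1 member at an unadjusted p under 0.05, 0 by DESeq2), and 0 at 10 Gy (0.264% of all genes; 0 at an unadjusted p under 0.05, 0 by DESeq2). Without replicate 1 both counts were 0 as well, again with 0 members at an unadjusted p under 0.05. The doses differed for 0 members by edgeR (0% of all genes; 0 at an unadjusted p under 0.05, 0 by DESeq2), also without replicate 1. Median changes were -0.15 at 20 Gy and 0.04 at 10 Gy. The untreated libraries, which may hold fewer than 4 animals, were far apart, with Brca1 at 2.46, 2.02, 0.59 and 5.53 CPM. The 20 Gy libraries at 3.29, 1.37, 1.15 and 3.73 CPM lay within that range. Mki67 in the same untreated libraries was at 19.3, 15.7, 2.34 and 58.9 CPM, lowest and highest in the libraries that were lowest and highest for Brca1. The blocked fit at 20 Gy called Wrn alone (-0.42, adjusted p = 0.04), against 15.4% of all genes, and called 0 without replicate 1 (2% of all genes).

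**Figure D4:**
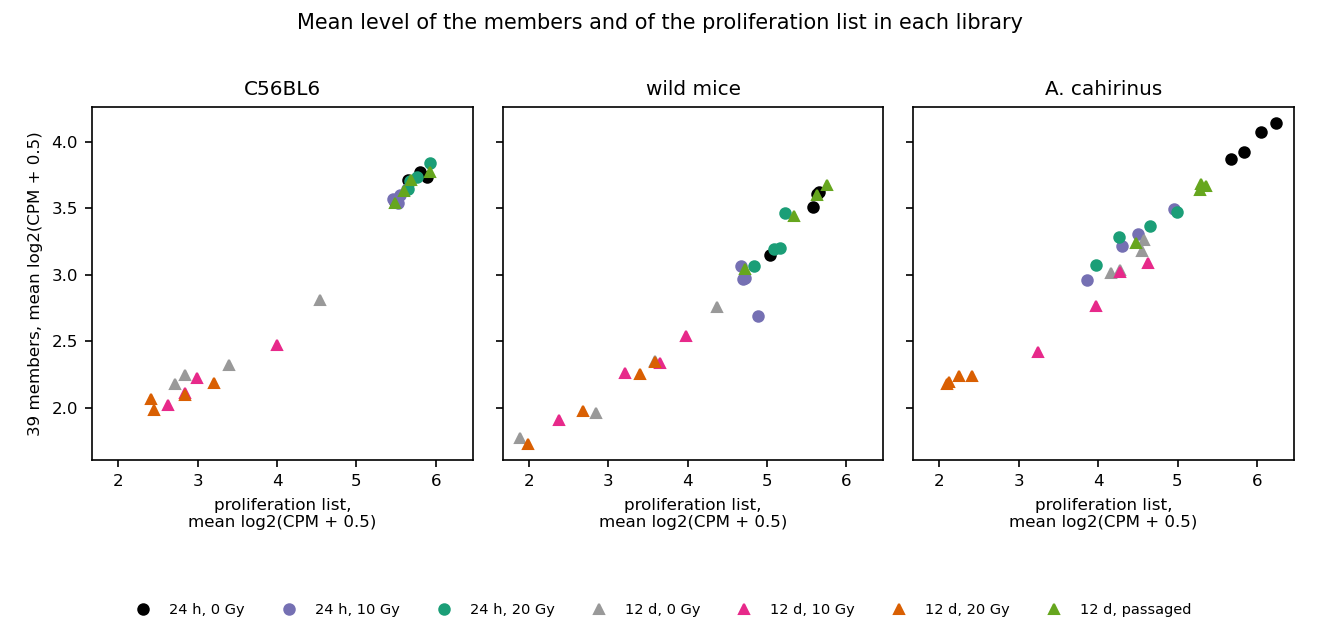
Mean log2(CPM + 0.5) of the 39 genes (vertical axis) against that of 40 proliferation genes (horizontal axis) in each of the 84 libraries (points, coloured by group), with a panel for each population. The points of each panel run mostly from lower left to upper right, with exceptions such as the 10 Gy library of wild replicate 1 at 24 h, and the 20 Gy libraries of *A. cahirinus* at 12 d are the lowest of that population on both axes.

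At 12 d the same interactions were tested. Against C56BL6 mice 9 of 39 changes were lower and 0 higher, against 10.7% of all genes lower: Dna2 (-3.25 ± 0.57, edgeR adjusted p = 0.00201), Brca1 (-2.46 ± 0.53, edgeR adjusted p = 0.00609), Hrob (-2.19 ± 0.59, edgeR adjusted p = 0.0204), Fanca (-1.85), Fanci (-1.85), Bard1 (-1.68), Fancm (-1.20), Mms22l (-0.90) and Rad50 (-0.64). The count was 15, 4, 1 and 4 without replicates 1, 2, 3 and 4, and 19 in the blocked fit (38% of all genes in either direction). Of these 19, Fance was higher in *A. cahirinus* (0.37, edgeR adjusted p = 0.0433 in the blocked fit) and the others were lower. Against wild mice 3 were lower, against 2.18% of all genes lower: Dna2 (-3.78 ± 0.63, edgeR adjusted p = 0.00983), Brca1 (-2.83 ± 0.73, edgeR adjusted p = 0.0495) and Fancm (-1.25 ± 0.26, edgeR adjusted p = 0.0242). Leaving each number out of both populations changed that count. It was 0 without replicate 1 (4 members at an unadjusted p under 0.05), 2 without replicate 2, 1 without replicate 3 and 0 without replicate 4 (14 members). With the blocked fit it was 18, and 7 without replicate 1, where 23.3% and 7.63% of all genes were called. Wild and C56BL6 changes were not called different for any member (0% of all genes; 0 at an unadjusted p under 0.05, 0 by DESeq2), with or without replicate 1.

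Much of the set was higher in passaged than in unpassaged untreated cells. In C56BL6 mice, 29 of 39 genes were higher in passaged cells than in untreated ones (24.2% of all genes higher) and 3 were lower (25.5% lower), with a median change of 1.48 against -0.02 over all genes. Brca1 was at 19.2, 15.6, 19.5 and 14.8 CPM in passaged cells, above all untreated libraries (2.61 ± 0.44, edgeR adjusted p = 0.00198). Fanca went from 6.46, 2.51, 1.82 and 1.55 CPM to 33.4, 21.2, 26.4 and 22.8 CPM, and Rad54b from 1.87, 0.44, 0.43 and 0.69 CPM to 9.19, 5.91, 8.99 and 6.32 CPM. Both had groups far apart (3.07 ± 0.46 and 3.14 ± 0.50, edgeR adjusted p = 0.0013 and 0.00159), although 35.9% of the exonic bases of Rad54b overlap other genes. The 3 that fell were Rad51d (-0.51 ± 0.09, edgeR adjusted p = 0.00233), Fancf (-0.51 ± 0.15, edgeR adjusted p = 0.0206) and Rad52 (-0.34 ± 0.09, edgeR adjusted p = 0.016).

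In wild mice, 18 of 39 rose and 0 fell with passaging (5.51% of all genes higher), with a median of 1.62. Brca1 was at 11.3, 18.6, 9.79 and 18.1 CPM in passaged cells, above the untreated range (2.44 ± 0.61, edgeR adjusted p = 0.0427). The count fell to 0 without replicate 1 (23 members at an unadjusted p under 0.05), 1 without replicate 2 and 0 without replicate 4 (29 members), and was 22 without replicate 3. The blocked fit called 28, and 23 without replicate 1, against 31.9% and 13.7% of all genes. In *A. cahirinus*, 14 of 39 rose and 0 fell (12.1% of all genes higher), with a median of 0.42. The count was 4, 23, 4 and 7 without replicates 1, 2, 3 and 4, and 25 in the blocked fit (23.2% of all genes higher). Its leading genes were Mms22l, from 7.63, 7.36, 7.22 and 7.85 CPM to 19.8, 12.8, 17.8 and 17.6 CPM (1.16 ± 0.13, edgeR adjusted p = 0.00119), and Fancm, from 5.58, 6.82, 8.38 and 7.88 CPM to 16.7, 10.96, 18.2 and 17.6 CPM (1.12 ± 0.18, edgeR adjusted p = 0.00428). Neither had overlapping groups, and replicate 2 was the lowest passaged library for both. Brca1 was at 19, 8.69, 17.4 and 20.4 CPM in passaged *A. cahirinus* cells, where replicate 2 overlapped the untreated range (0.60 ± 0.26, edgeR adjusted p = 0.121; 0.0215 in the blocked fit).

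The genes that rose with passaging in every population numbered 10: Rad54b, Rbbp8, Mre11a, Fanca, Fancm, Ube2t, Fancd2, Fanci, Slx4 and Mms22l. Of all genes tested in each population, 2.34% were higher in all 3. With the blocked fits 21 members were higher in all 3 (8.71% of all genes), and 19 with wild replicate 1 left out (5.11%); without a block, leaving it out removes every wild call. Members called in no population numbered 6 (Rad50, Wrn, Fancc, Fance, Fancg and Fancl; 36.6% of all genes), and 4 with the blocked fits (19.4%). Mus81 and Slx4, which irradiation left uncalled in *A. cahirinus*, rose with passaging there. Mus81 was at 36.4, 37.6, 39.2 and 35.5 CPM in passaged cells (0.65 ± 0.10, edgeR adjusted p = 0.00392) and Slx4 went from 36.6, 31.9, 31.7 and 42.7 CPM to 54.8, 50.1, 48.03 and 51.7 CPM (0.50 ± 0.10, edgeR adjusted p = 0.0103). Both groups of libraries lay above the untreated ones.

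Set against passaged cells, the 20 Gy cells at 12 d were lower for 31 of 39 genes in C56BL6 cells (21.2% of all genes lower), 25 in wild mouse cells (6.1% lower) and 34 in *A. cahirinus* cells (23% lower), with 0 higher in each. Medians were -2.08, -1.78 and -1.24. Brca1 had changes of -3.14 ± 0.23, -2.58 ± 0.45 and -3.58 ± 0.28 (edgeR adjusted p = 5.04e-05, 0.0139 and 8.1e-05). Fanci had changes of -3.27 ± 0.15, -3.05 ± 0.68 and -3.83 ± 0.30 (edgeR adjusted p = 1.15e-05, 0.0285 and 8.58e-05). In all 3 populations 23 members were called lower, against 5.08% of all genes tested in each. With the blocked fits 27 were lower in all 3 (12% of all genes), and 27 with wild replicate 1 left out (10.5%). Without a block, leaving it out removes every wild call of a member, with those of Brca1 and Fanci. The wild count was 0 without replicate 1 (29 members at an unadjusted p under 0.05), 4 without replicate 2, 27 without replicate 3 and 0 without replicate 4 (29 members). This comparison and that of passaged with untreated cells share the passaged libraries.

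Untreated wild and C56BL6 cells differed for few of the 39 genes. At 24 h 2 were lower in wild mice (2.38% of all genes lower). Fancc, a core complex gene, was at 10.3, 11.5, 11.2 and 12.02 CPM in C56BL6 mice and at 6.05, 5.79, 5.83 and 3.87 CPM in wild mice, without overlap (-0.99 ± 0.18, edgeR adjusted p = 0.0168). It was again lower at 12 d, where it was the 1 gene called (1.29% of all genes lower), with 9.68, 13.8, 17.5 and 16.4 CPM against 7.14, 7.11, 6.22 and 4.92 CPM (-1.07 ± 0.23, edgeR adjusted p = 0.0485). Other genes overlap 18.6% of the exonic bases of Fancc, so its counts are uncertain. Dna2 was lower in wild mice at 24 h (-1.04 ± 0.20, edgeR adjusted p = 0.0212) and not called at 12 d (-0.46, edgeR adjusted p = 0.52). Leaving out replicate 1 of both populations gave 1 gene at each time. Leaving out replicate 2, 3 or 4 of both gave 0 at each time. At an unadjusted p under 0.05 edgeR then had 4, 4 and 5 members at 24 h and 2, 1 and 1 at 12 d.

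Other genes of the pathways and lists of related processes were counted in the same fits. At 24 h and 20 Gy in *A. cahirinus*, 2.7% of all genes were called lower and 0.89% higher, or 10.8% and 13.3% in the blocked fit. Of 40 further recombination and Fanconi genes 9 fell and 0 rose (median -0.19), and 17 were lower in the blocked fit. These included Rmi2 (-1.70), a partner of BLM, and Usp1 (-1.10), which removes ubiquitin from FANCD2. Of 19 genes of end joining and its choice 1 fell, Rif1 (-0.61), and 2 were lower in the blocked fit. Proliferation genes fell in 33 of 40 cases (median -1.41), led by Ccna2 (-2.28) and Rrm2 (-2.11), and Mki67 fell by 1.95 (edgeR adjusted p = 0.00311). Of 28 p53 targets 12 rose and 0 fell, with Cdkn1a higher by 1.30 (edgeR adjusted p = 0.00311), and the blocked fit called 20 higher and 1 lower.

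In C56BL6 mice at the same dose and time, edgeR without a block called 0 further recombination genes, 0 end-joining genes and 0 of 40 proliferation genes, and 2 of 29 p53 targets rose (0.0826% of all genes higher). Mki67 there changed by -0.14 (edgeR adjusted p = 0.817). Under the block, edgeR called 17 p53 targets higher and 0 lower, 8 proliferation genes higher and 3 lower, 2 further recombination genes higher and 3 lower, and 2 end-joining genes lower, against 8.2% of all genes higher and 9.45% lower. At 12 d after 20 Gy, *A. cahirinus* had 18 of 40 further recombination genes, 5 of 20 end-joining genes and 37 of 39 proliferation genes lower, the last with a median of -2.42, where 18.1% of all genes were lower. Under the block 10 end-joining genes were called lower and 1 higher (25.7% of all genes lower).

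Mean levels of the 39 genes and of the proliferation genes stand side by side in the plot of both means. The mean log2(CPM + 0.5) of the 39 genes in untreated, 10 and 20 Gy cells of *A. cahirinus* at 24 h was 4 ± 0.12, 3.25 and 3.30 ± 0.17 (SD, n = 4), beside 5.95, 4.40 and 4.47 for the proliferation genes. In C56BL6 mice at 24 h it was 3.69, 3.59 and 3.73, beside 5.71, 5.55 and 5.75. In *A. cahirinus* at 12 d it was 3.12 untreated, 2.82 at 10 Gy, 2.21 at 20 Gy and 3.56 in passaged cells, beside 4.39, 4.03, 2.22 and 5.10. In C56BL6 mice at 12 d untreated cells had 2.39 ± 0.29, passaged cells 3.67 and 20 Gy cells 2.08, beside 3.37, 5.67 and 2.73. The part of proliferation in the changes of the 39 genes was not tested.

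The letters before the start sites of the members were then read, whether or not a member was called. RefSeq promoters (mouse, GRCm38.p6, the 250 bases before each start) were matched for 29 of the 39 genes. The word TTCCCGC on either strand (GCGGGAA on the other), the core of a motif bound by E2F factors of the cell cycle, was in 7 of 29 promoters (24.1%), against 3.8% of the 27025 promoters in the table. The word CCAAT, on either strand, was in 15 of 29 (51.7%), against 34.5%. The words were searched apart, and neither contains the other. Stretches of 60 bases are shown for 4 genes that fell in *A. cahirinus* at 24 h (Brca1, Bard1, Fancm and Ube2t) and 2 that were not called (Rad52 and Fancg), 5′ to 3′ on the gene's strand, with the words in capitals.
Brca1 (chr11:101552009-101552068, minus strand): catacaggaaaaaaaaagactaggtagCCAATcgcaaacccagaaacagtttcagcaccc
Bard1 (chr1:71103147-71103206, minus strand): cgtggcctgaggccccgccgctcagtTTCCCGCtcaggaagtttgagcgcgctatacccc
Fancm (chr12:65075523-65075582, plus strand): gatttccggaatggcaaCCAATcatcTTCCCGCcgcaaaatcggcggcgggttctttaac
Ube2t (chr1:134962380-134962439, plus strand): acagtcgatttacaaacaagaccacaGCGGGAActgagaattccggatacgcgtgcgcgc
Rad52 (chr6:119902540-119902599, plus strand): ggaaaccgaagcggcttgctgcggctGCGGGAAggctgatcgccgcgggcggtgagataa
Fancg (chr4:43010319-43010378, minus strand): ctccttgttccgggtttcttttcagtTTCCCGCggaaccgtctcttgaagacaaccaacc

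The word TTCCCGC stood in promoters of genes that moved and of genes that did not. In *A. cahirinus* at 24 h after 20 Gy, 3 of the 7 genes with it were called lower (median -0.31) and 11 of the 22 matched genes without it (median -0.78). The stretches printed above show all 3 of the former but, of the 11, Brca1 alone, so they do not stand for the genes that fell. In passaged C56BL6 cells 5 of the 7 rose and 1 fell (median 1.14), and 17 of the 22 rose and 1 fell (median 2). Brca1, among the genes that moved most, held CCAAT but not TTCCCGC in its window. The promoters are those of the mouse, and the sequences of *A. cahirinus* were not used here. A match describes letters, not a site in use.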

How the data were processed

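RNA of primary skin fibroblasts was sequenced as stranded mRNA libraries, per the labels' protocols. The deposited values were counts of reads per gene made by the authors with featureCounts 2.0.3, per the file headers, on GRCm39 with Ensembl release 108 for mice and on an assembly named AcoCah2 for *A. cahirinus*. The headers record no strand option, so reads of overlapping and antisense genes are uncertain. In mice the overlapped share of exonic bases was 16% for Fanci, 10.7% for Eme1 and 10.5% for Fanca, beside the genes given above. In *A. cahirinus* it was 28.9% for Fancf, 22.4% for Rad54l, 21.2% for Fancl, 19.3% for Fanca, 11.1% for Fanci and 11% for Eme1. Trim Galore and HISAT2 are named without versions in the submitters' processing notes. The gene lengths, other values deposited by the authors beside the counts, were used for levels per kb only. All count columns were matched to a library by name (0 left unused), and 0 rows named no gene.

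Each comparison was fitted on its own groups with edgeR 4.0.16 in R 4.3.3 (filterByExpr, TMM, quasi-likelihood test) after the method was tested on simulated data. P-values were Benjamini-Hochberg adjusted over all genes tested, with a threshold of 0.05. Interactions with *A. cahirinus* were fitted on 18109 symbols that the tables share. Library depth was 17.42 to 52.86 M counts. Replicates of a group differed by 7.95-fold to 573-fold more than sampling noise over 126 pairs, so no pair was merged as 1 library deposited again. This does not show that libraries came from separate animals.

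The labels number the replicates, and within a population each number goes with 1 animal code in the library names. Libraries of the same number deviated from their group means together, with mean correlations across genes of 0.50 to 0.89 (lowest pair 0.36), against -0.29 to -0.12 for other numbers. Deviations from a group mean cancel out within the group, so the negative values follow from the positive ones and are not a separate check. By the animal codes and the same-number correlations, the numbers were taken to pair the libraries. Values with the number as a block stand beside a result where they change it. Alternatives were RLE size factors, no filter, DESeq2 1.42.0, the block, a fit of all groups together and leaving out each number. In comparisons between populations, leaving out a number removed its libraries from both. The block without replicate 1 was added after the data were seen.

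The 39 genes, the other gene lists and the tests were chosen with earlier results of these data known. Any of the 39 genes could be named, and per-library values were given for called genes with large changes and genes of the same role. From each other list the rule allowed up to 5 called genes with the largest changes and a mean of at least 1 CPM, beside Mki67, Top2a, Cdkn1a and Mdm2. Promoters were read from RefSeq sequences.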

Additional observations from a re-analysis of the deposited data

Results flagged for a closer look

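Single libraries stood apart from the other 3 of their group by a gap test (Dixon, 95%) in 6 of the 128 groups of values checked, and chance alone gives about 1 in 20. Brca1 was at 25.31 CPM in C56BL6 replicate 3 at 24 h and 20 Gy, against 19.44 to 19.87 CPM in the others. Fanci was at 9.74 CPM in *A. cahirinus* replicate 3, untreated at 12 d, and Fancb was at 18.64 CPM in *A. cahirinus* replicate 2 at 12 d and 20 Gy. Hrob was at 3.19 CPM in C56BL6 replicate 1, untreated at 12 d, against 0.73 to 1 CPM. Fancc was at 3.87 CPM in wild replicate 4, untreated at 24 h. The mean log2(CPM + 0.5) of the 39 genes was 3.24 in passaged *A. cahirinus* replicate 2, against 3.64 to 3.68 in the others.

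Changes at 20 Gy differed between *A. cahirinus* and C56BL6 mice for 15 of the 39 genes at 24 h, by edgeR's interaction test (1.89% of all genes lower; 0 members without replicate 3). The differences were -1.97 for Brca1, -1.85 for Hrob and -1.73 for Polq. At 12 d they differed for 9 genes (10.7% of all genes lower; 1 without replicate 3), with -2.46 for Brca1, -3.25 for Dna2 and -2.19 for Hrob. Against wild mice at 12 d they differed for 3 genes (2.18% of all genes lower; 0 without replicate 1 or replicate 4), with -3.78 for Dna2 and -2.83 for Brca1.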

How the results depend on the processing

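Counts of members called kept within 1.5 times the reported value in 198 of 270 alternative fits, and no named member reversed; of the single values, 491 kept their side of the threshold, 12 gained a call and 105 lost it, mostly with an animal left out. Under the replicate block they moved to 7 and 1 in C56BL6 mice at 24 h (20 and 10 Gy) and 12 and 8 at 12 d; to 6 and 1 in wild mice at 20 Gy (24 h and 12 d) and 28 in passaged wild cells; to 9 at 10 Gy, 20 between doses and 25 in passaged cells of *A. cahirinus* at 12 d; and, for interactions of *A. cahirinus*, to 25 (C56BL6) and 13 (wild) at 24 h and 19 and 18 at 12 d. The block changed no other count of calls by over 1.5 times. The block without replicate 1 gave 15 at 20 Gy and 28 at 10 Gy in wild mice at 24 h, 10 and 7 for *A. cahirinus* against wild (24 h and 12 d) and 11 for wild against C56BL6 mice at 24 h. DESeq2 gave 7 (wild, 24 h, 10 Gy), 3 and 15 (*A. cahirinus* at 12 d, 10 Gy and between doses), 23 (against C56BL6, 24 h), and 2 and 5 (against wild, 24 h and 12 d). One fit of all groups gave 9 (C56BL6, 12 d, 10 Gy) and, in *A. cahirinus* at 12 d, 1 at 10 Gy, 15 between doses and 9 in passaged cells. Without the filter the counts were 3 (C56BL6, 12 d, 20 Gy), 1 (*A. cahirinus*, between doses) and 0 (untreated wild against C56BL6, 12 d), the last also 0 with RLE size factors.

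Leaving out 1 replicate number gave 0 to 20 (20 Gy) and 0 to 22 (10 Gy) in *A. cahirinus* at 24 h. At 12 d it gave 18 to 32 (20 Gy), 0 to 23 (between doses) and 4 to 23 (passaged). In C56BL6 mice at 12 d it gave 1 to 8 (20 Gy) and 0 to 6 (10 Gy). In wild mice it gave 0 to 22 (passaged) and 0 to 27 (20 Gy against passaged). Untreated wild against C56BL6 cells gave 0 to 1 at each time. For *A. cahirinus* against C56BL6 mice it gave 0 to 10 at 24 h and 1 to 15 at 12 d, and against wild mice 0 to 2 at 12 d. These fits hold 3 libraries a group, and the cause of each move was not tested. For most of them, and for DESeq2, the share of all genes called is not given beside the count. Whether the members moved apart from other genes in these fits was therefore not tested. At 12 d after 20 Gy, Hrob and Dna2 of *A. cahirinus* lie near the floor of 3 counts, which limits their fold changes.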
